A study of Mus musculus with 10 samples.

Results

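The vascular endothelial growth factor (VEGF) ligands and receptors were followed through bulk RNA sequencing of whole kidneys from E13.5 mouse embryos. The 7 genes were the ligands *Vegfa*, *Vegfb*, *Vegfc* and *Pgf* and the receptors *Flt1*, *Kdr* and *Flt4*, chosen by name from the 35663 gene entries of the deposited expression table, and each name was found on 1 entry. The table holds 10 libraries on a C57/b6 background: 4 wild type kidneys, 3 kidneys carrying Foxd1-Cre alone (control) and 3 kidneys of the genotype Foxd1-Cre; Ntn1c/c (mutant). Foxd1-Cre is active in the stromal progenitors of the kidney, where it deletes a floxed *Ntn1*, the gene for the secreted guidance protein netrin 1. Control and mutant kidneys both carry the Cre allele and wild type kidneys do not, so the mutant and control groups differ by *Ntn1* and the wild type group also differs from both by Foxd1-Cre. The study's methods and legends describe replicates as single embryos drawn from more than 1 litter, but neither they nor the labels tie a library to a litter, so the part of litter in the spread between libraries was not tested.

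VEGF ligands are secreted proteins that act on receptor tyrosine kinases found mainly on endothelial cells. VEGF-A, made in the developing kidney by epithelial and other non-endothelial cells, signals through VEGFR2 (encoded by *Kdr*) and drives vessel growth and the entry of capillaries into glomeruli. VEGFR1 (*Flt1*) binds VEGF-A tightly and signals weakly, so that it can act as a trap, and it is also the receptor of VEGF-B and placental growth factor (*Pgf*), while VEGF-C acts through VEGFR3 (*Flt4*) on lymphatic vessels and on growing blood vessels.

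Values were FPKM, read here as fragments per kilobase of coding sequence, scaled to library depth, and on that basis levels were compared between genes. The length used for each gene is not given in the sources. Libraries also differed in the balance of short and long coding genes, as described below. The order of short ligand and long receptor genes carries both limits. In whole kidneys, fewer cells of a type and less RNA per cell cannot be told apart. The deleted gene *Ntn1* lay at 10.7 to 16.3 FPKM in mutant, 24.2 to 51.4 in control and 27.1 to 46.3 in wild type libraries, so the mutant libraries lay below all others. Summed FPKM was 795829 to 1002638, and rough depths read from the steps between low values were 26.3 to 32.2 M fragments (1 M is 1e6). Wild type 3 and control 3 stood apart in coding length: the median log2 deviation of genes under 1000 coding bases minus that of genes over 3000 (the length score) was 0.46 and 0.15 in them and -0.13 to 0.04 in the other 8. The Y-linked gene *Ddx3y* was at 26.7 to 33.4 FPKM in wild type 3, control 2 and all 3 mutants and at most 0.28 in the others, so embryo sex is partly tied to group. With sex as a covariate, mutant minus control is therefore the mutant mean minus control 2 alone. Mutant minus wild type is then the mutant mean minus wild type 3 alone. In the accounts of genes and lists these differences are given as values without a test. What the tests of this model gave is stated only under the dependence on processing, with that limit beside it. Control 3 also held 1074 FPKM summed over 12 skeletal muscle markers, against 23.6 to 236 in the others. It had the lowest ureteric bud signal as well, 77.1 FPKM summed over 7 markers against 167 to 207 in the other 9 libraries. All 6 nephron progenitor markers were expressed, and endothelial markers were present throughout: 21 of 22 endothelial markers had a mean of at least 1 FPKM, and their sum was 299 to 420 FPKM.

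All 7 VEGF genes were detected in each library, and their mean levels could be ordered with 1 unresolved step. *Vegfb* was the most abundant (mean over 10 libraries 25.8 ± 1.88 FPKM, SD), followed by *Vegfa* (23.6 ± 2.43), *Kdr* (19.1 ± 2.22), *Pgf* (9.87 ± 2.15), *Flt1* (6.91 ± 0.87), *Vegfc* (6.44 ± 0.76) and *Flt4* (5.49 ± 0.79). Among the 14534 genes whose mean FPKM over all libraries reached 0.5, *Vegfb* stood above 69.1% and *Flt4* above 31.9%. Neighbours in this order were compared within libraries by a two-sided exact permutation test (sign flips over 10 libraries, adjusted over 6 pairs). *Flt1* exceeded *Vegfc* in 6 of 10 libraries (adjusted exact p = 0.293), so those neighbours were not separated. The other 5 pairs kept their order in 8 to 10 libraries, with adjusted exact p of 0.00585 to 0.0187; *Vegfb* exceeded *Vegfa* by 1.10-fold, in 9 of 10 libraries.

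**Figure D1:**
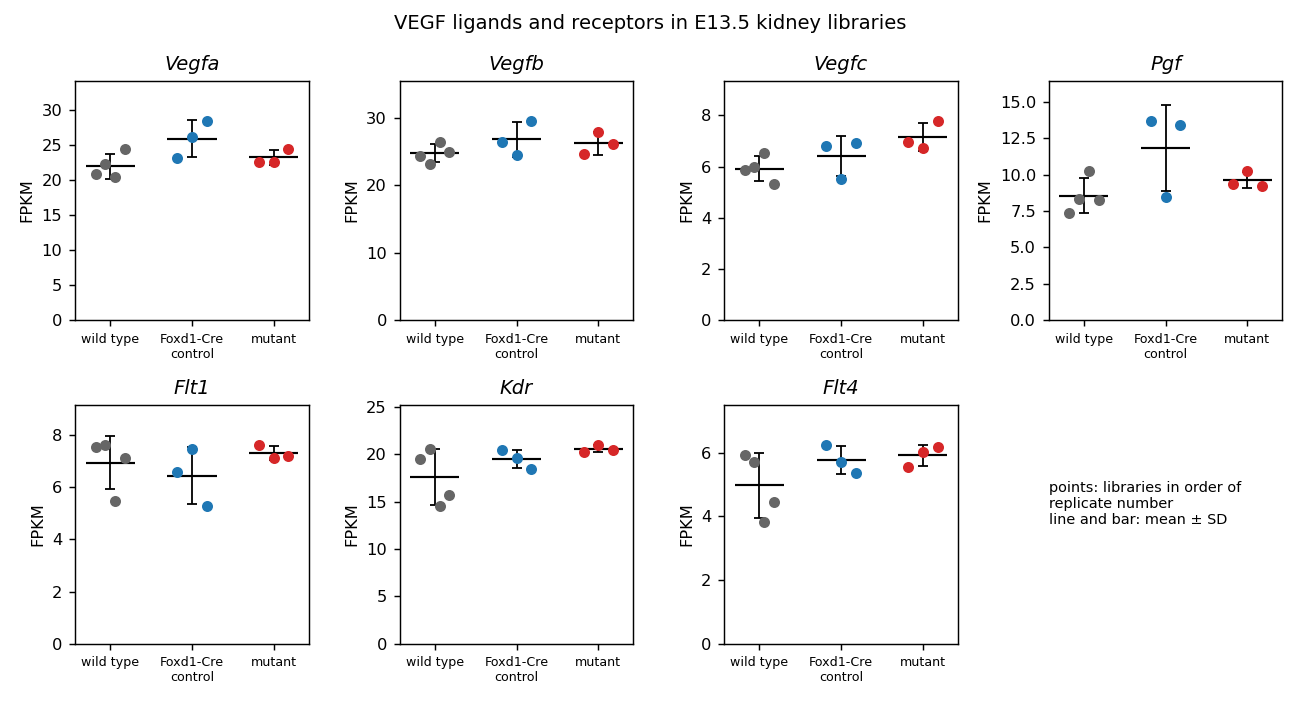
FPKM of each VEGF ligand and receptor (vertical axes, starting at 0) in 4 wild type, 3 Foxd1-Cre control and 3 mutant libraries, with the group mean and SD. *Pgf* shows the widest control group, 8.46 to 13.7 FPKM, and *Kdr* the narrowest mutant group, 20.3 to 21.05.

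Summed ligand FPKM here is over *Vegfa*, *Vegfb*, *Vegfc* and *Pgf*. It leaves out the related ligand gene *Vegfd*, which measured 6.11 to 12.6 FPKM, and shares with *Vegfd* in the sum were not computed. The balance among the genes included varied most for *Pgf*, which made up 12.6% to 19.6% of the summed ligand FPKM per library and was 0.98 to 2.54 times its receptor *Flt1*. *Vegfa* and *Vegfb* together made up most of the summed ligand FPKM, with *Vegfa* at 32.1% to 40.6% and *Vegfb* at 37.7% to 41.6% per library. *Kdr* was 57.5% to 63.5% of the summed receptor FPKM, *Flt1* 18.1% to 26.1% and *Flt4* 16.0% to 18.8%. The *Kdr* level was 2.20 to 3.50 times that of *Flt1*, and the *Vegfa* level was 1.07 to 1.56 times that of its receptor *Kdr*. *Vegfc* accounted for 8.52% to 9.69% of ligand FPKM in controls and 9.96% to 11.5% in mutants, without overlap, but wild type kidneys, at 8.45% to 10.3%, overlapped both. *Vegfb* took 37.7% to 37.8% in controls, below its 38.6% to 41.3% in mutants and 38.8% to 41.6% in wild type. These separations hold for the sum without *Vegfd*. Of all genes tested, 19.9% did not overlap between mutant and control in level, and how often shares separate in this way was not computed.

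The 3 comparisons were made, each with limma on log2(FPKM+0.1) across all genes whose mean FPKM reached 0.5, with p-values adjusted by Benjamini-Hochberg. Calls required a change of 2-fold or more together with an adjusted p below 0.1. The comparison of mutant with control kidneys asks what changes without stromal *Ntn1*, and the other pair asks how each of these groups stands to kidneys without Cre. Comparisons that share a group are not independent of each other.

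No VEGF ligand or receptor was called in mutant against control kidneys, where 0.055% of 14550 genes were called. None of the 7 had an unadjusted p under 0.05, against 10.7% of all genes tested, and the groups overlapped for all 7, against 19.9% of all genes without overlap. Differences ran from -0.27 (*Pgf*) to 0.19 (*Flt1*) on the log2 scale, with 4 genes higher and 3 lower and a median of 0.04, against 0.01 over all genes. All 95% intervals lay within a 2-fold change in either direction. The widest, for *Pgf*, ran from 0.601- to 1.15-fold, and that of *Kdr* from 0.945- to 1.18-fold.

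Against wild type kidneys, all 7 were higher in mutants (median log2 difference 0.18, against 0.00 over all genes), and none was called, where 0.0485% of 14432 genes were called. Only *Vegfc* had an unadjusted p under 0.05 among the 7, against 5.76% of all genes and 2.45% higher. The endothelial markers lay the same way beside them, with 20 of 21 tested higher and a median of 0.17. In controls against wild type, where 0.00685% of 14594 genes were called, 6 of the 7 were higher (median 0.16) and none was called. *Pgf* alone had an unadjusted p under 0.05, against 7.06% of all genes, and 19 of 21 endothelial markers were higher with a median of 0.17.

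**Figure D2:**
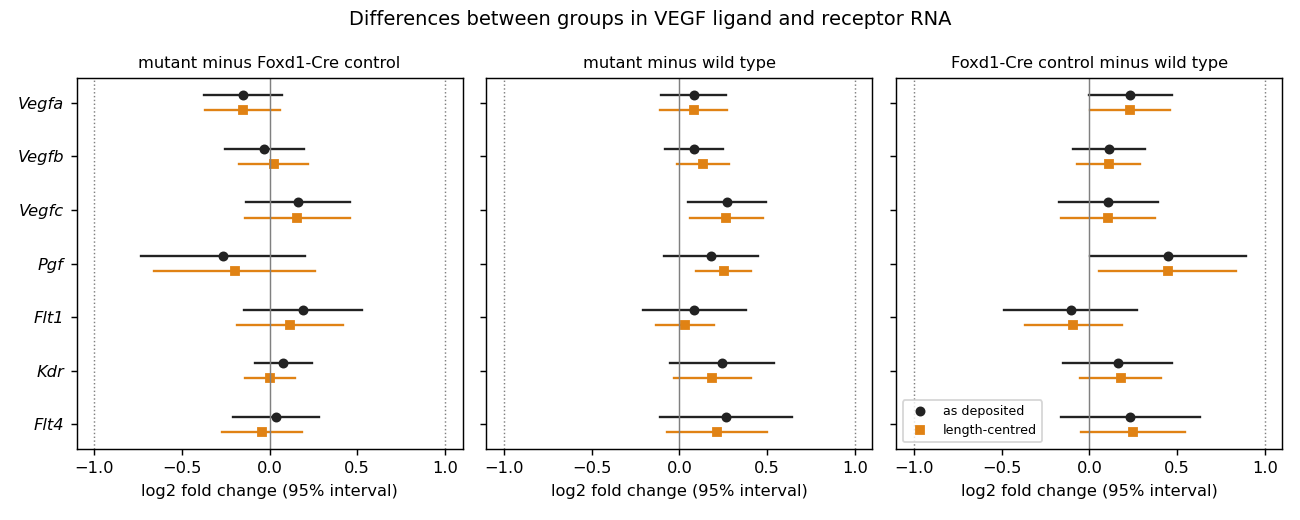
Log2 fold change of each VEGF gene (horizontal axis, with 95% limma interval) in 3 comparisons, from the values as deposited (circles) and after removing each library's trend with coding length (squares). Dotted lines mark a 2-fold change. In mutant against control all 14 intervals cross 0, and *Vegfc* lies above 0 in mutant against wild type in both versions.

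*Vegfa* encodes the principal growth factor for endothelial cells. It lies on chromosome 17 of GRCm38 (46016993 to 46032369, minus strand) and has 8 coding transcripts in GENCODE M21, whose balance cannot be read from gene-level values. It measured 20.96, 22.3, 20.4 and 24.4 FPKM in wild type 1 to 4, 23.2, 26.2 and 28.5 in control 1 to 3, and 22.7, 22.6 and 24.5 in mutant 1 to 3. Controls 2 and 3 were the highest libraries, and the mutant range overlapped both other groups. The log2 difference was -0.15 ± 0.09 (SE) between mutant and control (adjusted limma p = 0.484, exact permutation p = 0.2) and 0.23 ± 0.10 between control and wild type (adjusted limma p = 0.665, exact permutation p = 0.0857). Control 1 lay below wild type 4, so those groups overlapped as well. Control 3, the library with the highest *Vegfa*, is the one with the low ureteric bud signal, and without it mutant minus control was -0.08 (adjusted p = 0.804).

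*Vegfb* encodes a VEGFR1 ligand linked to fatty acid handling and survival of vascular cells rather than to sprouting. The gene lies on chromosome 19 (6982473 to 6987651, minus strand). Wild type 1 to 4 had 24.4, 23.2, 26.4 and 25.0 FPKM, controls 26.4, 24.4 and 29.5, and mutants 24.6, 27.9 and 26.1. It varied least of the 7, by 1.27-fold from the lowest to the highest library, and the 3 groups overlapped. Mutant and control differed by -0.03 ± 0.09 (log2, SE; adjusted p = 0.893), and this sign turned after length centring (0.02).

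*Pgf*, placental growth factor, is a VEGFR1 ligand best known in placenta and in injured or inflamed tissue. It lies on chromosome 12 (85166635 to 85177790, minus strand). Levels were 7.39, 8.32, 10.2 and 8.23 FPKM in wild type, 13.7, 8.46 and 13.4 in control, and 9.39, 10.3 and 9.24 in mutant libraries. Controls 1 and 3 were above every other library, while control 2 fell below the mutants and inside the wild type range. It varied most of the 7, by 1.85-fold.

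The *Pgf* contrasts therefore turned on 1 control. Mutant minus control was -0.27 ± 0.19 (log2, SE; adjusted limma p = 0.537, exact permutation p = 0.4). Without control 2 it was -0.49 with no overlap (adjusted p = 0.122), as for 21.4% of all genes in this direction, and without control 3 it was -0.16 (adjusted p = 0.842). Control 2 is also the one control with *Ddx3y* at the level of the mutants, and the mutant mean minus control 2 alone was 0.18. Control minus wild type was 0.45 ± 0.19 (adjusted limma p = 0.665, exact permutation p = 0.143), and 0.67 without control 2 (adjusted p = 0.185). Against wild type, mutants were higher by 0.18 ± 0.12 (adjusted limma p = 0.947, exact permutation p = 0.229), and wild type 3 alone of the wild type libraries reached their range; without it the difference was 0.27 (adjusted p = 0.493). After length centring it was 0.25 and the groups did not overlap, as for 3.53% of genes in this direction, without passing adjustment (adjusted p = 0.423).

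*Vegfc* encodes the ligand of VEGFR3 and is required for lymphatic sprouting. The gene spans 54077606 to 54187096 on the plus strand of chromosome 8. Wild type kidneys held 5.86, 5.98, 6.52 and 5.32 FPKM, controls 6.79, 5.50 and 6.91, and mutants 6.97, 6.72 and 7.79. All 3 mutants were above all 4 wild type libraries, a pattern seen in 3.56% of genes tested in this direction, and controls spanned both ranges. Mutants exceeded wild type by 1.21-fold (95% interval 1.03 to 1.41), which did not pass adjustment (adjusted limma p = 0.731, exact permutation p = 0.0571). The same comparison after length centring gave 0.27 on the log2 scale (adjusted p = 0.572). Against control the log2 difference was 0.16 ± 0.12 (SE, adjusted p = 0.55). The mutant mean minus control 2 alone was 0.37, and minus wild type 3 alone it was 0.13.

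Each of the 3 receptor genes has a coding sequence of about the same length (3999 bases in *Flt1*, 4035 in *Kdr* and 4089 in *Flt4*) spread over 30 exons, counting those of the longest coding transcript, whereas the 4 ligands have 486 to 1245 coding bases. Upstream sequence is shown for *Kdr* and *Flt1*, because both lie on chromosome 5, on the minus strand, and yet varied differently among the libraries. Each is the 250 bases before the RefSeq start in GRCm38.p6, 5′ to 3′ on the gene's strand, with GGGCGG (the GC box, on either strand) and TATAAA in capitals.
Kdr, chr5:75978456-75978705: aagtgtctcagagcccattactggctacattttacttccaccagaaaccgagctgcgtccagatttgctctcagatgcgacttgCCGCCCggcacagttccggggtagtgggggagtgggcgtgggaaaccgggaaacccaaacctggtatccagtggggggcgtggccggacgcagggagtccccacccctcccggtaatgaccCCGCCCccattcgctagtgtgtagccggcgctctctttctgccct
Flt1, chr5:147726012-147726261: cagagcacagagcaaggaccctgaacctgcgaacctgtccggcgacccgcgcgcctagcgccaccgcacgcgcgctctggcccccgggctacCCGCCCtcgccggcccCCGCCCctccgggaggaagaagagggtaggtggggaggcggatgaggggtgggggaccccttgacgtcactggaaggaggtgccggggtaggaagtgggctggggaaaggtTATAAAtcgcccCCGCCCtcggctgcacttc
The *Kdr* window holds 2 matches to GGGCGG and none to TATAAA. In *Flt1* there are 3 GGGCGG matches and 1 TATAAA, 31 bases before the start. Of 32851 RefSeq windows of this length, 32.7% hold GGGCGG and 12.4% hold TATAAA on either strand. GGAA, the core bound by ETS factors, occurs 4 times in each of the printed windows, but it is in 93.4% of all windows (median 3). These matches are descriptions of letters and not of binding. The *Flt4* window, with 3 GGGCGG and 2 GGAA matches, lies inside the first exon of the GENCODE model and is not printed.

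*Flt1*, from 147561604 to 147726011 on chromosome 5, gives rise to a membrane receptor and to a soluble form, which a gene-level value does not separate. It measured 7.55, 7.64, 5.47 and 7.13 FPKM in wild type, 6.59, 7.47 and 5.28 in control, and 7.60, 7.14 and 7.19 in mutant libraries. The lowest values were in wild type 3 and control 3, the libraries with the highest length scores, and the other 8 lay between 6.59 and 7.64. Mutant minus control was 0.19 ± 0.14 (log2, SE; adjusted p = 0.534). It was 0.06 without control 3 and 0.12 after length centring, and mutant minus wild type was 0.08 ± 0.13 (adjusted p = 0.956).

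*Kdr* encodes VEGFR2, the main signalling receptor for VEGF-A and one of the earliest markers of the endothelial lineage. It extends from 75932827 to 75978458. Wild type libraries had 19.5, 20.6, 14.6 and 15.7 FPKM, controls 20.4, 19.6 and 18.5, and mutants 20.3, 21.05 and 20.5. Wild type 3 and 4 were low and the other 8 lay between 18.5 and 21.05. The log2 difference was 0.08 ± 0.07 (SE) between mutant and control (adjusted p = 0.586) and 0.00 after length centring (95% interval -0.14 to 0.14), and 0.24 ± 0.13 between mutant and wild type (adjusted limma p = 0.947, exact permutation p = 0.229).

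*Flt4* encodes VEGFR3, found on lymphatic endothelium and on sprouting capillaries, and lies on the plus strand of chromosome 11 (49609263 to 49652739). Its levels were 5.92, 5.69, 3.81 and 4.45 FPKM in wild type, 6.25, 5.70 and 5.36 in control, and 5.54, 6.03 and 6.17 in mutant libraries. As with *Kdr*, wild type 3 and 4 were lowest and the remaining libraries overlapped. Mutant minus control was 0.04 ± 0.10 (log2, SE; adjusted p = 0.879) and -0.04 after length centring. Mutant minus wild type was 0.27 ± 0.16 (adjusted limma p = 0.947, exact permutation p = 0.257).

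Wild type 3, the only wild type library with *Ddx3y* and the one with the highest length score, was the lowest wild type library for all 3 receptors. The mutant mean minus wild type 3 alone was 0.41 for *Flt1*, 0.50 for *Kdr* and 0.62 for *Flt4* on the log2 scale. In that library embryo sex, length score and any other property cannot be told apart. The mutant mean minus control 2 alone, the control with *Ddx3y*, was -0.03 to 0.07 for the 3 receptors.

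**Figure D3:**
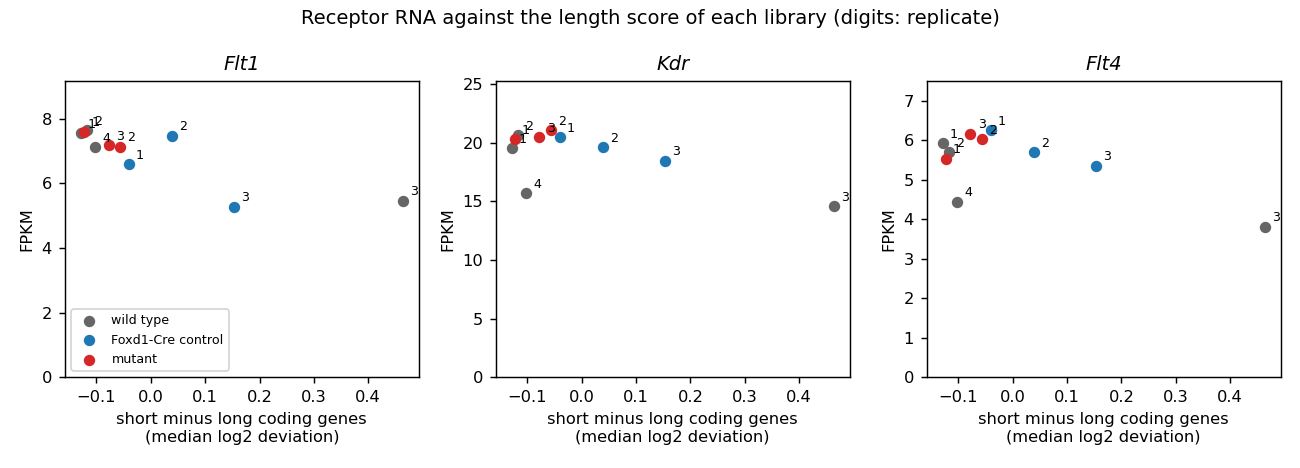
FPKM of the 3 receptors (vertical axes, from 0) against the length score of each library (log2 difference between medians of short and long coding genes), with the replicate number beside each point. Wild type 3 has the highest score, 0.46, and the lowest *Kdr* and *Flt4*, while wild type 4 has low *Kdr* and *Flt4* at a score of -0.10.

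Across the 10 libraries *Kdr* and *Flt4* varied together, with Pearson's r = 0.963 and Spearman's rho = 0.733 on log2 values. Without wild type 3 and 4, the pair farthest from the median *Kdr* level, r was 0.624 over 8 libraries. Among the 13181 other genes with mean FPKM of 1 or more, *Kdr* was most like *Cd93*, an endothelial surface glycoprotein (r = 0.974), then *Flt4* and *Gm45594* (r = 0.947). *Flt4* was most like *Kdr*, *Fam102b* (r = 0.952) and *Gm45594* (r = 0.946). *Flt1* had other neighbours: the RNA-binding protein gene *Hnrnpul1* and the maintenance DNA methyltransferase gene *Dnmt1*, both at r = 0.986, and *Arid1b* (r = 0.979), a chromatin remodelling subunit.

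The ligands were each closest to different genes. The highest correlations were with *Agpat3* (r = 0.959) for *Vegfa*, *D17H6S53E* (r = 0.93) for *Vegfb*, *Nek3* (r = 0.927) for *Vegfc* and *Mkrn3* (r = 0.961) for *Pgf*. With *N4bp3* and *C8g* for *Vegfa*, *Xpa* and *Abcg4* for *Vegfb*, *H60b* and *Ube2f* for *Vegfc*, and *Gm48455* and *Ccdc137* for *Pgf*, r was 0.872 to 0.954. All of these correlations are over the same 10 libraries, which also differ in length score. For *Flt1* and the length score r was -0.834 (rho = -0.782), and it was -0.327 without wild type 3 and control 3.

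To set the VEGF genes against the endothelial content of the same library, the mean log2 level of the 21 endothelial markers was subtracted. No difference between groups passed a two-sided exact permutation test, adjusted over 21 tests (7 genes in 3 comparisons; adjusted exact p = 0.919 to 1). With 3 libraries against 3 the smallest p this test can give is 0.1, and with 3 against 4 it is 0.0286. Relative to the markers, mutant minus control was 0.21 for *Flt1*, 0.10 for *Kdr* and 0.06 for *Flt4*, and mutant minus wild type was -0.10, 0.06 and 0.08. The largest relative difference was -0.31, in *Flt1* between control and wild type (exact p = 0.114). The spread of *Kdr* over all 10 libraries fell from an SD of 0.18 to 0.12 log2 units after this subtraction and that of *Flt4* from 0.22 to 0.15, while that of *Flt1* went from 0.19 to 0.23 and no ligand's SD fell. *Kdr* and *Flt4* followed the endothelial mean with r = 0.739 and 0.76 (rho = 0.394 and 0.503), and without wild type 3 and 4 r was -0.302 and 0.071, so those relations rest on these 2 libraries.

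**Figure D4:**
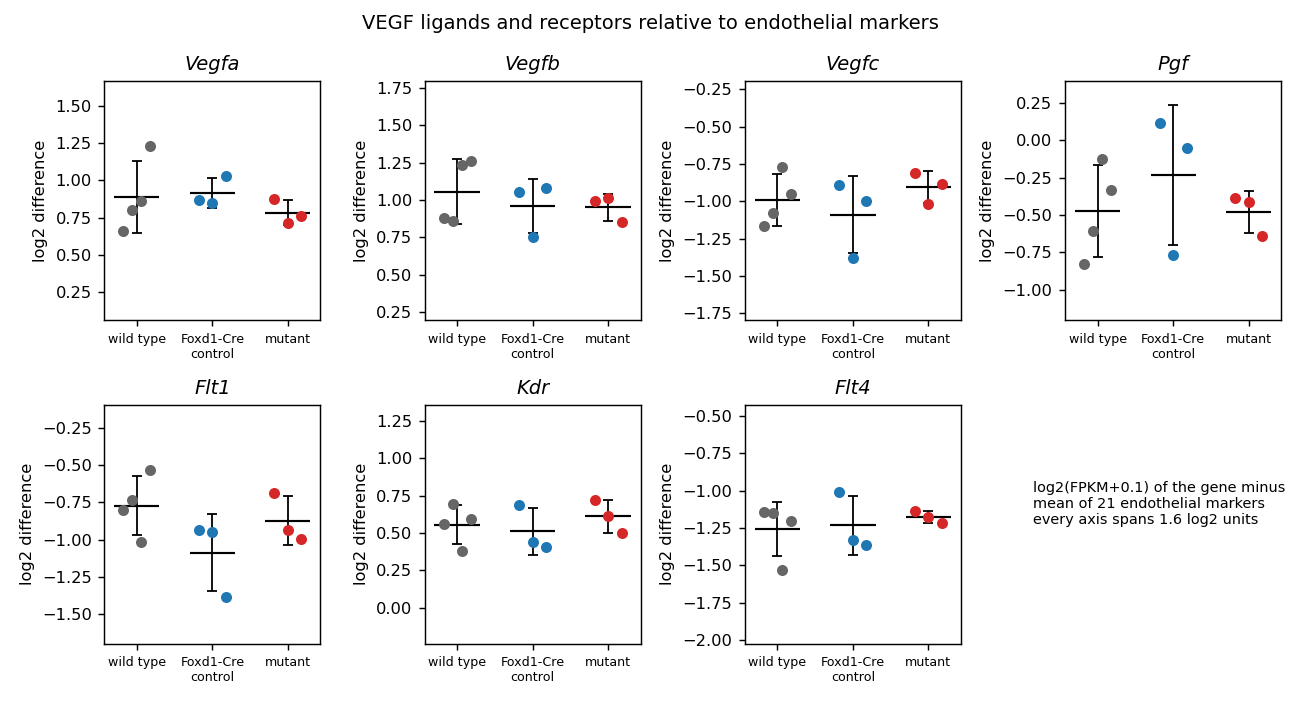
Log2 level of each VEGF gene minus the mean of 21 endothelial markers (vertical axes, each spanning 1.6 log2 units) in the 3 groups, with mean and SD. The groups overlap in every panel, and *Flt4* in wild type 3 lies at -1.53 beside -1.20 to -1.15 in the other wild type libraries.

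*Vegfd*, the other lymphangiogenic ligand of VEGFR3 and outside the 7 named genes, had its lowest levels in mutants and control 2. It lies on chromosome X and measured 10.1, 9.13, 11.5 and 10.4 FPKM in wild type, 10.99, 6.63 and 12.6 in control, and 6.81, 6.11 and 8.44 in mutant libraries. All mutants lay below all wild type libraries, as in 3.54% of genes tested in this direction, and control 2 was within the mutant range. The difference from wild type was -0.53 ± 0.13 (log2, SE), which did not pass adjustment (adjusted limma p = 0.378; exact permutation p = 0.0286, the smallest possible). From control it was -0.46 ± 0.26 (adjusted p = 0.47) and -0.73 without control 2 (adjusted p = 0.141). Against the libraries with *Ddx3y*, the mutant mean minus control 2 alone was 0.09 and minus wild type 3 alone -0.70. The part of embryo sex in these values was not tested. Among the controls, *Pgf* and *Vegfd* thus both had their lowest value in control 2. Set against wild type the 2 genes differed. For *Pgf*, controls 1 and 3 lay above the wild type range and control 2 within it. For *Vegfd*, control 1 (10.99) lay within that range, control 3 (12.6) above it and control 2 (6.63) below it.

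Markers of several other cells and tissues divided the controls in the same way. Summed FPKM in controls 1, 2 and 3 was 16120, 7943 and 18056 for 9 erythroid markers and 35.3, 25.4 and 52.3 for 8 macrophage markers. It was 236, 73.0 and 1074 for 12 skeletal muscle markers and 25.9, 9.41 and 21.9 for 3 liver and adrenal markers. Among lists of the kidney itself it was 342, 281 and 340 for 7 stromal markers and 300, 253 and 363 for 6 nephron progenitor markers. Control 2 was thus the lowest control for each of these lists, as it was for *Pgf*, *Vegfb*, *Vegfc* and *Vegfd*. Other lists went the opposite way, with control 2 the highest control. Their sums in controls 1, 2 and 3 were 362, 420 and 394 FPKM for endothelial and 167, 197 and 77.1 for ureteric bud markers. For podocyte markers they were 224, 245 and 207. *Flt1* was also highest in control 2, while *Vegfa* was lowest in control 1, and *Kdr* and *Flt4* in control 3. The erythroid sum was also high in mutant 3 (18628), a library with no high *Pgf*. The parts of these tissues and of embryo sex in the low values of control 2 were not tested.

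The lymphatic markers showed the same division of the controls. In mutant against control 4 of 5 were lower with a median of -0.61, none at an unadjusted p under 0.05. Without control 2, 4 of 5 were lower at that level with a median of -0.90, where 11.3% of all genes were. Other lists had such members too: 11 of 13 skeletal muscle, 5 of 8 macrophage and 4 of 7 stromal markers were also lower at that level. Taken against control 2 alone, 4 of 5 lymphatic markers were higher in mutants, with a median of 0.11. Their sum was 57.8 and 64.9 FPKM in controls 1 and 3, 37.2 in control 2 and 36.3 to 46.3 in mutants, beside 39.5 to 46.7 in wild type. *Pdpn* was the largest part of that sum, with means of 25.5 FPKM in mutants, 30.0 in controls and 27.8 in wild type. *Reln* had its lowest mean in controls (4.74, 3.82 and 6.08 in the same order). The sum is thus not a measure of lymphatic content. *Prox1*, the lymphatic master regulator, had means of 1.10 FPKM in mutants, 1.81 in controls and 1.18 in wild type, and *Lyve1* had 1.08, 2.04 and 1.45. The part of lymphatic content in the values of *Flt4*, *Vegfc* and *Vegfd* was not tested.

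Co-receptors and matrix partners of VEGF had lower values in mutants than in controls for most members, which also turned on the controls. Of 7 tested in that list, which includes *Vegfd*, 6 were lower and 1 was at an unadjusted p under 0.05, with a median of -0.34 against 0.01 over all genes. Against control 2 alone 4 were higher and 3 lower, with a median of 0.02. Against all 3 controls, markers of some other tissues were lower as well. These were 8 of 8 macrophage, 9 of 9 erythroid, 13 of 13 skeletal muscle, 3 of 3 liver and adrenal and 6 of 7 stromal markers, the last including *Ntn1*. Ureteric bud markers went the other way, with 7 of 7 higher (median 0.81). The size of that difference turned on control 3: without it 7 of 7 were higher with a median of 0.18. Against control 2 alone 4 ureteric bud markers were higher and 3 lower, with a median of 0.098. Against all 3 controls, higher values were also found for 5 of 8 podocyte, 10 of 21 endothelial and 2 of 6 nephron progenitor markers. The gene of the co-receptor list at that level was *Nrp2*, a neuropilin that binds VEGF-C, at 8.39, 6.75 and 10.02 FPKM in controls and 5.33, 6.41 and 6.87 in mutants. It differed by -0.42 ± 0.17 (log2, SE; adjusted limma p = 0.447, exact permutation p = 0.2), and the highest mutant overlapped the lowest control. Control 3 weighed on it: without that library the difference was -0.28 (adjusted p = 0.677). *Nrp1*, the neuropilin partner of VEGFR2 and the most abundant of these genes, had means of 54.8 FPKM in mutants and 51.7 in controls, a log2 difference of 0.09 ± 0.07 (adjusted p = 0.589).

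Among receptor partners and factors that process or limit the ligands, 8 of 18 were higher and 10 lower (median -0.04), with 1 at an unadjusted p under 0.05. This was *Ccbe1*, which assists the cleavage of VEGF-C into its active form. Its FPKM were 4.80, 3.42 and 6.39 in controls and 3.18, 2.91 and 2.82 in mutants, so the groups did not overlap, as for 8.91% of all genes in this direction. The difference of -0.65 ± 0.23 (log2, SE) did not pass adjustment (adjusted limma p = 0.447; exact permutation p = 0.1, the smallest possible) and was -0.44 without control 3 (adjusted p = 0.673). Wild type kidneys, with 2.97 to 4.27 FPKM, overlapped both groups. *Adamts3*, the protease that cleaves VEGF-C with *Ccbe1*, was at 2.90 to 5.54 FPKM in controls and 2.48 to 2.83 in mutants, also without overlap (adjusted limma p = 0.451, exact permutation p = 0.1). Wild type kidneys, at 3.12 to 4.00 FPKM, lay above all mutants too, as in 3.54% of genes tested in that direction. In mutant against wild type, *Adamts3* was the 1 gene of this list at an unadjusted limma p under 0.05, and it was not called.

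Intracellular signalling genes downstream of the receptors were evenly split, with 15 of 30 higher and 15 lower and a median of -0.01. At an unadjusted p under 0.05, 2 were higher in mutants, *Mapk14* (p38 kinase, log2 difference 0.33) and *Rac1* (a small GTPase of cell migration, 0.13). The 3 lower were *Sphk1* (sphingosine kinase, -1.01), *Hspb1* (a small heat shock protein downstream of p38, -0.69) and *Map2k2* (a MAP kinase kinase, -0.16). Each had an adjusted limma p of 0.447, and none was called. *Sphk1* was near the lower limit of the tested range, at 1.05 to 1.72 FPKM in controls and 0.38 to 0.76 in mutants.

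Genes that endothelial cells are known to switch on under VEGF had no member at that level. In this list 3 of 12 were higher and 9 lower with a median of -0.08. The most abundant were the chemokine receptor gene *Cxcr4*, the Notch effector *Hey1* and the calcineurin regulator *Rcan1*, with log2 differences between mutant and control of -0.09, 0.23 and -0.06, at adjusted limma p-values from 0.67 to 0.725. Of the podocyte markers, whose cells are a known source of VEGF-A, 8 of 10 were tested, 5 higher and 3 lower with a median of 0.06. Hypoxia regulators and targets, which include known inducers of *Vegfa*, had 10 of 18 higher and 8 lower with a median of 0.02. *Slc2a1*, a glucose transporter, and *Pdk1*, a kinase that restrains pyruvate use, were higher at an unadjusted p under 0.05, by 0.16 and 0.15 on the log2 scale, with an adjusted limma p of 0.447 each. *Pdk1* measured 21.6 to 24.1 FPKM in wild type, 25.6 to 26.9 in control and 28.5 to 29.8 in mutant kidneys. Of all genes tested, 19.9% did not overlap between mutant and control, and in 3.56% all mutants lay above all wild type libraries. The share for control against wild type is not given here, and *Pdk1* was named because of its unadjusted p.

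The endothelial markers themselves divided evenly between mutant and control, with 10 of 21 higher, 11 lower and a median of 0.00. *Erg*, an endothelial ETS factor, had a higher mean in mutants (log2 difference 0.28) and *Egfl7*, a secreted endothelial protein, a lower one (-0.44), both at an unadjusted p under 0.05 with an adjusted limma p of 0.447.

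**Figure D5:**
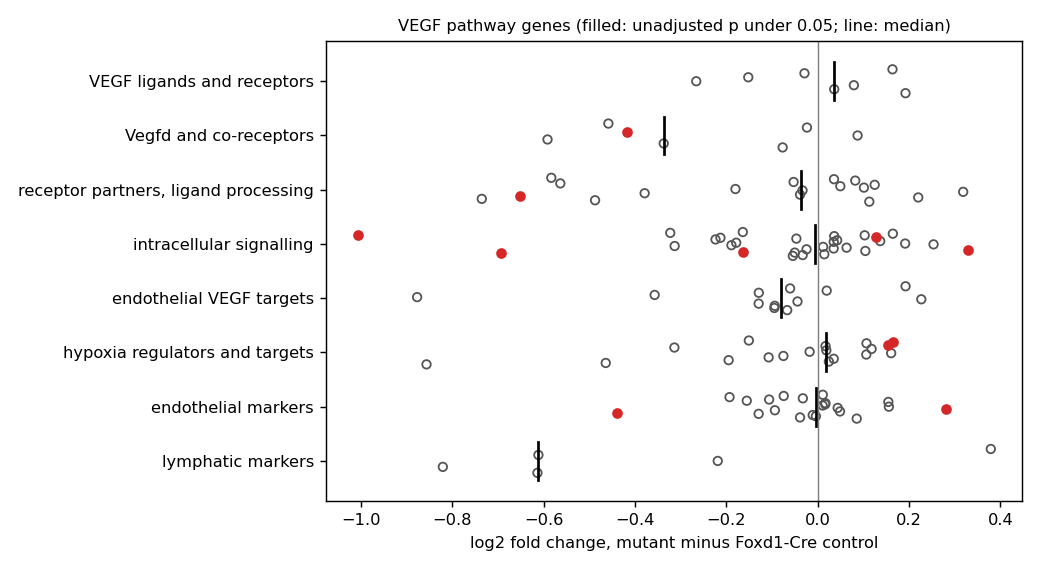
Log2 fold change between mutant and Foxd1-Cre control (horizontal axis) for the VEGF genes and 7 related lists, 1 point per tested gene, filled at an unadjusted limma p under 0.05. The VEGF ligands and receptors span -0.27 to 0.19 with none filled, and the co-receptor and lymphatic lists have the lowest medians, -0.34 and -0.61.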

How the data were processed

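Bulk RNA-seq values were deposited by the authors as FPKM per gene for 10 libraries; all columns were mapped to groups by their labels. Per the paper's methods and the submitters' notes, the authors converted base calls with bcl2fastq 2.17.1.14 and quantified reads with Salmon against GRCm38 coding sequences, followed by tximport. Sequence outside coding regions was therefore not measured, and transcripts of a gene are summed. How FPKM were derived from these estimates is not given in the sources used here. No counts were used, so the count test of the study was not repeated.

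FPKM were put on the log2(FPKM+0.1) scale and fitted with limma 3.58.1 (R 4.3.3; eBayes with trend; mean of at least 0.5 FPKM in the fitted libraries; Benjamini-Hochberg over all genes tested). Calls used an adjusted p of 0.1 and a fold of 2 as limits. Single comparisons used two-sided exact permutation tests. Coordinates are 1-based GENCODE M21 positions in GRCm38, and upstream sequences are from RefSeq (GRCm38.p6), where all 7 genes were matched by symbol. The scripts were tested on simulated data.

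The VEGF genes and the gene lists were chosen with earlier results of these data known. Named genes outside the 7 were those of each list with an unadjusted p under 0.05, those most like a VEGF gene, the most abundant genes where a list had none, and marker genes; *Vegfd*, *Nrp1* and *Adamts3* were named after their values were seen. Alternatives covered pseudocount, filter, scaling, all libraries in 1 model, a replicate block and leaving out each library. Length centring and embryo sex were chosen after seeing the data.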

Additional observations from a re-analysis of the deposited data

Results flagged for a closer look

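*Flt4* relative to the 21 endothelial markers stood apart in 1 wild type library. The log2 difference was -1.53 in wild type 3 and -1.15, -1.15 and -1.20 in wild type 1, 2 and 4, so that the gap to the nearest library was 0.845 of the whole range, above Dixon's limit of 0.829 for 4 samples. In all, 14 such sets of wild type values were examined, and chance alone marks about 1 in 20. Wild type 3 also had the highest length score, 0.46, and its part in the low *Flt4* value was not tested.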

How the results depend on the processing

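Across 10 settings and the omission of each library in turn, no VEGF ligand or receptor reached an adjusted p under 0.1 in any comparison, except the 3 receptors in mutant against wild type with embryo sex as a covariate (*Flt1* 0.41, *Kdr* 0.50, *Flt4* 0.62). That exception compares the mutants with wild type 3 alone, and the same model compares them with control 2 alone, so that its p-values rest on an arm of 1 library assumed to vary like the others. The model turned *Vegfb* to 0.099, *Pgf* to 0.18 and *Flt1* to -0.031 in mutant minus control, and *Vegfb* to -0.012 and *Pgf* to -0.089 in mutant minus wild type. *Vegfb* in mutant minus control also turned with equal summed FPKM (0.0067) and with length centring (0.023), as *Flt4* did with length centring (-0.042). Relative to the median endothelial marker, *Pgf* was 0.028 in mutant minus wild type.

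Leaving out each library gave, for mutant minus control, -0.093 to 0.043 (*Vegfb*) and -0.015 to 0.094 (*Flt4*), and for *Flt1* -0.025 to 0.13 in mutant minus wild type and -0.22 to 0.026 in control minus wild type. Relative to endothelial markers the ranges were, for mutant minus control, -0.11 to 0.051 (*Vegfb*) and -0.0066 to 0.17 (*Flt4*). For mutant minus wild type they were -0.18 to 0.0090 (*Vegfa*), -0.12 to 0.11 (*Pgf*), -0.0028 to 0.11 (*Kdr*) and -0.0082 to 0.12 (*Flt4*). For control minus wild type they were -0.050 to 0.14 (*Vegfa*), -0.16 to 0.0098 (*Vegfb*), -0.20 to 0.046 (*Vegfc*), -0.13 to 0.0064 (*Kdr*) and -0.088 to 0.089 (*Flt4*).

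Genes called were 8 (mutant against control), 7 (mutant against wild type) and 1 (control against wild type). Without the filter they were 21, 18 and 9, and with all 10 libraries in 1 limma model 0, 0 and 0, beside 1598, 636 and 1496 at an unadjusted p under 0.05. A pseudocount of 1 gave 2 and 2 in the latter pair, and 0.01 gave 2 in control against wild type. Embryo sex gave 4 and 187 in the first pair, again against control 2 or wild type 3 alone. Leaving out libraries gave 3 to 78, 1 to 20 and 3 to 20; the 78 came without control 2. The cause of these changes was not tested. The main fits assumed no pairing by replicate number. Deviations of same-numbered libraries from the group means correlated at -0.0388 to 0.0785 over the 3 comparisons. Those of differently numbered libraries correlated at -0.115 to 0.056. In none of the comparisons did every library correlate best with its own number. Correlations this weak cannot decide whether same-numbered libraries shared a litter. A replicate block gave 4 calls in mutant against control and 0 in control against wild type (1088 at an unadjusted p under 0.05), with no VEGF gene called.

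With 3 or 4 libraries a group, effects smaller than the intervals given could not be resolved, and each group rests on few libraries with unequal length scores and embryo sex.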
